A study of Mus musculus with 4 samples.

Results

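The tumour necrosis factor (TNF) family was followed through EO771 mouse mammary carcinoma cells with and without BML-210: its ligands, its receptors, the TRAF and death-domain adaptors that bind those receptors, and the TNFAIP and TNIP genes. Members were taken by gene symbol from the table of counts, which gave 63 of 56350 genes: 15 ligands, 23 receptors, 11 adaptor entries, 10 TNFAIP and TNIP genes, 3 TRAF-interacting genes and 1 antisense RNA. Traf5 has 2 entries, on chromosome 1 and on the scaffold KV575233.1, and both copies are counted. Of the 63, 36 had enough reads to be tested. The other 27 had between 0 and 45 counts over all 4 libraries, and 17 of them had at most 10.

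EO771 is an established mammary carcinoma line of C57BL/6 mice. All cells grew in DMEM with fetal bovine serum and penicillin/streptomycin. One group (2 libraries) was labelled BML-210, a synthetic inhibitor of histone deacetylases, and received 1.0 µM for 48 h. The other (2 libraries) was labelled untreated, while the treatment protocol speaks of a vehicle control. Titles of the untreated libraries read EO771 WT, and those of the treated libraries EO771 BML-210. The comparison asks how expression differs between these groups, and every difference below is BML-210 over untreated, as labelled. Column names in the table begin with Mo_V for the libraries labelled BML-210 and Mo_D for those labelled untreated, and whether these letters were meant the other way round cannot be told apart from the files. If the groups were exchanged, every direction would turn.

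Ligands of this family are mostly membrane-bound trimers, and some, TNF among them, are shed by proteases. They cluster receptors that either carry a death domain or bind TRAF proteins directly. Death-domain receptors recruit TRADD, RIPK1 or FADD, and through TRAF2, ubiquitin ligases and kinases the signal reaches NF-kappaB, or, when a caspase complex forms around FADD, apoptosis. NF-kappaB in turn drives genes that restrain the pathway, such as Tnfaip3, whose product edits ubiquitin chains. Carcinoma cells commonly express receptors for TNF, TRAIL and Fas ligand, whereas most ligands are products of leukocytes.

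The libraries held 13167893 to 16534667 gene counts, and mitochondrial genes took 5.05% to 5.57% of them. Levels are given as CPM, counts per 1000000 of the scaled library. Defining epithelial markers were sparse: of 9, only Krt8 (46.4 CPM in the untreated and 30.7 CPM in the BML-210 libraries, as group means) and Cdh1 (0.924 and 0.884 CPM) passed the filter, and Krt18 had 3 counts in the untreated and 0 in the BML-210 libraries. The 12 macrophage and monocyte markers summed to 168 to 172 CPM (untreated) and 34.8 to 36.7 CPM (BML-210), nearly all of it Cd68. Of these 12 markers 4 were tested and 2 called lower, Cd68 and Adgre1, while 23.5% of all tested genes were called lower. Adgre1 had 46 counts in the untreated and 5 in the BML-210 libraries (log2 fold change -2.98, edgeR adjusted p = 3.83e-05). Cd14 and Lyz2 were tested and not called. Csf1r had 22 and 10 counts and C1qc had 0. The 9 lymphocyte markers summed to 0.642 to 0.833 CPM and none was tested. Leukocyte markers (3 genes) summed to 1.31 to 1.71 CPM and endothelial markers (4 genes) to 6.19 to 8.55 CPM. Fibroblast markers (5 genes) summed to 176 and 183 CPM in the untreated and 116 and 123 CPM in the BML-210 libraries, mostly Pdgfra, with Lum at 0. Whether the Cd68 and Pdgfra reads came from the carcinoma cells themselves or from other cells was not tested. The part of any other cells in the results was not tested either. In bulk RNA fewer cells of a kind and less RNA per cell cannot be told apart.

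To show the sequence at genes that moved and at one that did not, 150 bases before the RefSeq start (GRCm38.p6, the same assembly as mm10) are given for 4 members, 5′ to 3′ on the gene's strand. Capitals mark matches, on either strand, to the kappaB consensus, read as GGG, a purine, any 2 bases, 2 pyrimidines and CC. Tnf rose most among tested members and had no match, Tnfaip3 and Tnip1 rose and had matches, and Traf3 had a match and was not called. The stretches are chr17:35202008-35202157 (minus strand) for Tnf, chr10:19015411-19015560 (minus strand, the upstream of 2 RefSeq starts) for Tnfaip3, chr11:54962941-54963090 (minus strand) for Tnip1 and chr12:111166220-111166369 (plus strand) for Traf3.
Tnf: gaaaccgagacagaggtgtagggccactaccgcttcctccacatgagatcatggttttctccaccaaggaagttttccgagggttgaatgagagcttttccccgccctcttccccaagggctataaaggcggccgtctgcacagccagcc
Tnfaip3: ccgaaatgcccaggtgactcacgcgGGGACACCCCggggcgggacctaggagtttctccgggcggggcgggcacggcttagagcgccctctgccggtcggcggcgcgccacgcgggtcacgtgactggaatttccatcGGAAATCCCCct
Tnip1: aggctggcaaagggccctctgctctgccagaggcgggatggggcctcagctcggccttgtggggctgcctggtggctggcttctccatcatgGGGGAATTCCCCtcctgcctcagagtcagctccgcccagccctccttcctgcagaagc
Traf3: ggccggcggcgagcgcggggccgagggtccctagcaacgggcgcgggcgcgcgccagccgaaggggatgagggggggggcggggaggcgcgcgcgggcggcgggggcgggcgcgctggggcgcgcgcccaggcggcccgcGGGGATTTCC

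Promoter windows of 300 bases, from 250 before to 50 after a RefSeq start, were found for 50 of the 62 member symbols (56 windows). A kappaB match lay in 9 of these 56 windows (16.1%), against 8.46% of 32851 windows of all genes. Member windows also had a higher median GC content (58.3% against 52.7%), whose part in this difference was not tested. By call, the matches fell at 3 of 10 genes called higher (Tnfaip3, Tnip1 and Tnfaip2), 0 of 6 called lower, 3 of 13 not called (Traf3, Tnfrsf9 and Tnfaip8l1) and 3 of 21 not tested (Ltb, Tnfrsf8 and Tnfrsf25). The closest match to a start was that of Traf3 at position -10 and the next that of Tnfaip3 at -12, where -1 is the base before the start. Tnip1 held an overlapping run of matches at -58 to -56, on both strands. A looser pattern, GGG and CC with any 5 bases between them, which covers the consensus on both strands, occurred in 67.9% of member windows and in 50.8% of all windows. A match is a run of letters, not a binding site, and these windows do not reach more distant elements. No windows were at hand for Tnfsf12, Tnfsf9, Tnfsf4, Tnfrsf10b, Tnfrsf22, Tnfrsf26, Tnfrsf11b, Cd40, Tradd, Tnfaip8, Traf3ip2 and Tnfsf13os.

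Tnf and several genes of its inner circuit rose under the BML-210 label, while summed receptor level lay between 241 and 245 CPM per kb in every library. Tnf rose 3.01-fold, and the adaptor genes Fadd, Ripk1 and Traf1 and the feedback gene Tnfaip3 rose by 0.58 to 0.86 on the log2 scale. Lower were the adaptor gene Tradd, the decoy receptor gene Tnfrsf23, Traf6, Traf7 and the second TNF receptor gene Tnfrsf1b. In edgeR's quasi-likelihood test 12 of 36 tested members were called higher (33.3%) and 7 lower (19.4%). Over all tested genes 22.9% were called higher, 23.5% lower and 46.4% in either direction. The median log2 fold change was 0.08 over the members and -0.00248 over all genes. Both BML-210 libraries lay above both untreated ones for 18 members and below them for 11, with 7 overlapping; 71.3% of all tested genes did not overlap. DESeq2 called 9 members higher and 4 lower.

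**Figure D1:**
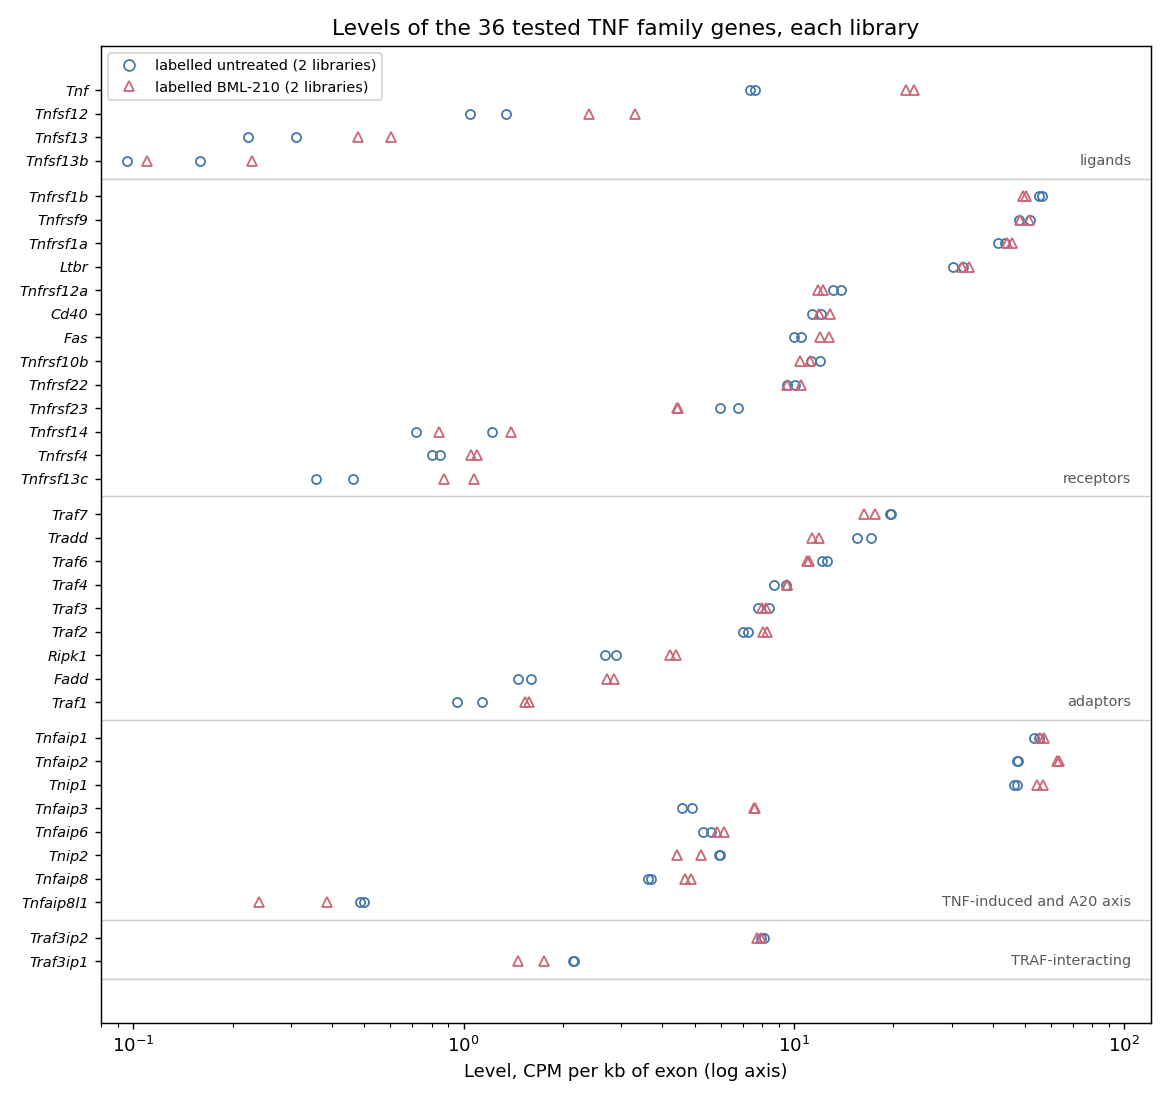
Level of each of the 36 tested members in each of the 4 libraries, as CPM per kb of exon on a log axis, ordered by level within its role (the TNFAIP and TNIP genes are headed TNF-induced and A20 axis, A20 being the product of Tnfaip3); circles are libraries labelled untreated and triangles those labelled BML-210. Receptor genes reach 56.3 CPM per kb while every ligand gene except Tnf lies under 4, and Tnf shows the widest gap between the groups.

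The cells expressed many receptors and few ligands. Summed over all 15 ligand genes, the level was 9.70 and 10.5 CPM per kb in the untreated libraries and 25.9 and 28.0 in the BML-210 libraries. Tnf alone made up 75.8% and 72.6% of that sum in the untreated libraries and 84.4% and 82.7% in the others. Summed receptor level was 245 and 245 CPM per kb in the untreated and 241 and 245 in the BML-210 libraries, where both sums lay below those of the untreated group but BML-210 replicate 2 by less than 1 CPM per kb. The adaptors summed to 76.0 and 80.0 CPM per kb against 74.9 and 73.3, and the TNFAIP and TNIP genes to 169 and 169 against 196 and 201. These sums carry no p-value: an exact permutation test of 2 against 2 libraries cannot give less than 0.333.

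Among the ligands, Tnf (ENSMUSG00000024401.14, chromosome 17, 35199381 to 35202007, mm10), the founding cytokine of the family, was at 12.1 and 12.5 CPM in the untreated libraries and at 35.8 and 38.0 CPM in the BML-210 libraries. The groups did not overlap, and the gap was many times the spread within either. On the log2 scale it rose by 1.59 ± 0.10 (SE; edgeR adjusted p = 5.27e-21). Tnf sits between the lymphotoxin genes Ltb, 3.06 kb away, and Lta, 1.157 kb away. Neither neighbour was tested: Lta had 0 and 6 counts in the untreated and 6 and 3 in the BML-210 libraries, and Ltb had 8 and 6 against 2 and 10. A rise at this locus was therefore measured for Tnf, and the depth did not allow a statement on the lymphotoxins.

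Tnfsf12, which encodes the ligand TWEAK (ENSMUSG00000097328.7, chromosome 11, 69686250 to 69695849), was at 1.58 and 2.04 CPM in the untreated and 3.63 and 4.995 CPM in the BML-210 libraries. That is a separation without overlap at a low level, 26 and 28 counts against 48 and 70. On the log2 scale the rise was 1.27 ± 0.27 (SE; edgeR adjusted p = 8.32e-05). Next to it lies Tnfsf13, the gene of the B-cell ligand APRIL, 465 bases away and at 0.365 and 0.510 CPM against 0.984 and 0.785 CPM. Its log2 fold change of 1.02 ± 0.54 (SE) did not pass (edgeR adjusted p = 0.119). Both share exons with the read-through gene Tnfsfm13, which had 2 counts in the untreated and 8 in the BML-210 libraries, so reads of the pair are not fully separable. The antisense RNA Tnfsf13os at this locus had 28 counts in the untreated and 17 in the BML-210 libraries and was not tested.

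Tnfsf13b, which encodes the B-cell survival factor BAFF, overlapped between the groups (1.10 and 0.656 CPM against 0.757 and 1.57 CPM) and was not called (log2 fold change 0.39 ± 0.44, SE; edgeR adjusted p = 0.5). The remaining 11 ligand genes had at most 31 counts in all 4 libraries together, and Tnfsf4 and Tnfsf14 had 0. Tnfsf9, the ligand of the receptor encoded by Tnfrsf9, had 9 counts over the untreated and 0 over the BML-210 libraries. With the 0 replaced by 3 counts for the whole group, the limit that a count of 0 allows, its scaled level was 2.71-fold lower. This takes the 9 untreated counts as exact, so it is not a firm bound, and Tnfsf9 was not tested. Fasl, whose product kills cells through Fas, had 2 counts in each group. Tnfsf10, the gene of TRAIL, had 5 and 1 counts against 13 and 2, so its higher count came from 1 library; it passed the filter and was called only without BML-210 replicate 2 (edgeR adjusted p = 0.035).

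**Figure D2:**
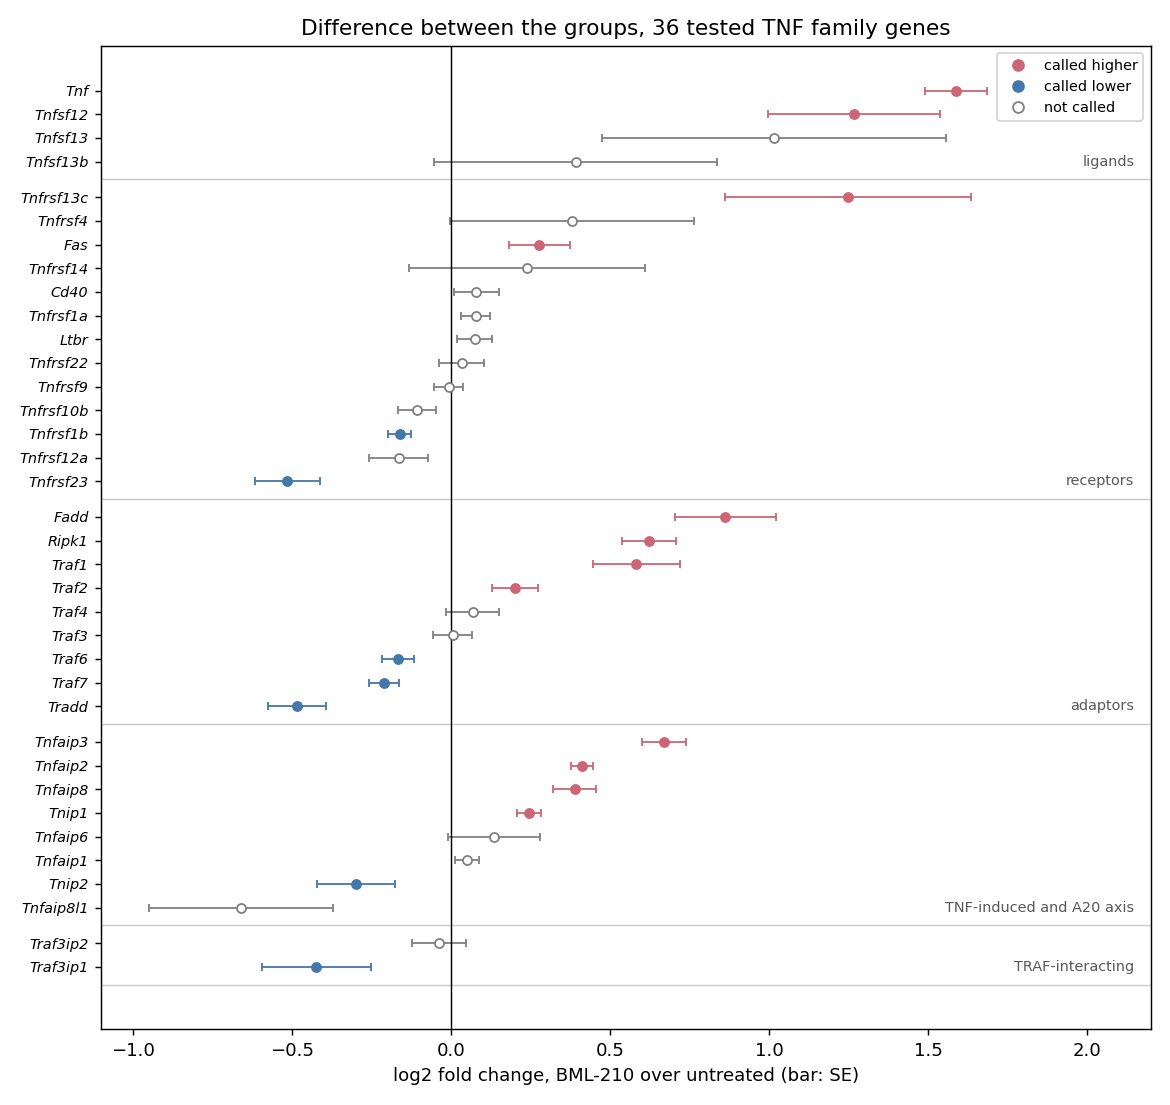
Log2 fold change of each of the 36 tested members with its SE, by role; filled points passed an adjusted p of 0.05. Ligands lie at or above 0.39. The receptors run from -0.51 (Tnfrsf23) to 1.25 (Tnfrsf13c) with a median of 0.07, and the adaptors from -0.49 (Tradd) to 0.86 (Fadd).

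Among receptors, 2 of 13 tested genes were called higher and 2 lower, a share of 30.8% against 46.4% of all tested genes. The most abundant per length were Tnfrsf1b, Tnfrsf9, Tnfrsf1a and Ltbr, at 55.8, 49.97, 42.5 and 31.4 CPM per kb in the untreated libraries. Their order held in the untreated group without overlap of neighbouring libraries. In the BML-210 group Tnfrsf1b and Tnfrsf9 were at 49.9 and 49.8 CPM per kb, closer than the spread of Tnfrsf9 (SD 2.28, n = 2). A second tier of Tnfrsf12a, Cd40, Fas, Tnfrsf10b and Tnfrsf22 lay between 9.5 and 13.9 CPM per kb over all libraries, with ranges that overlap between neighbours.

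TNF itself binds the products of Tnfrsf1a and Tnfrsf1b. Tnfrsf1a, which carries a death domain and is found on most cells, was at 108 and 113 CPM in the untreated and 118 and 114 CPM in the BML-210 libraries. Although the groups did not overlap, the log2 fold change of 0.08 ± 0.05 (SE) did not pass (edgeR adjusted p = 0.165). Tnfrsf1b (ENSMUSG00000028599.10, chromosome 4, 145213463 to 145246870), the TRAF-binding second receptor, was at 215 and 211 CPM against 189 and 192 CPM. Its groups were well apart for its small spread, and it fell by 0.16 ± 0.04 on the log2 scale (SE; edgeR adjusted p = 2.28e-04). Per length, the ratio of Tnfrsf1b to Tnfrsf1a was 1.35 and 1.27 in the untreated and 1.08 and 1.14 in the BML-210 libraries. The difference between their fold changes was not tested.

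Fas, the gene of the death receptor for Fas ligand (chromosome 19, 34290666 to 34327772), was at 20.6 and 21.6 CPM in the untreated and 24.8 and 26.4 CPM in the BML-210 libraries, and rose by 0.28 ± 0.10 on the log2 scale (SE; edgeR adjusted p = 0.013). That call rests on single libraries: the adjusted p was 0.096 without untreated replicate 1, 0.126 without BML-210 replicate 2 and 0.106 in DESeq2, in a range of 0.00841 to 0.126 over 13 alternatives. Tnfrsf10b, the mouse TRAIL death receptor gene, was at 65.2 and 61.4 CPM against 60.9 and 57.0 CPM and was not called (log2 fold change -0.11 ± 0.06, SE; edgeR adjusted p = 0.141). Tnfrsf21 and Tnfrsf25 had at most 4 counts in any library.

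Mouse decoy receptors for TRAIL are encoded by neighbouring genes on chromosome 7. Tnfrsf23 (143665809 to 143685872) was at 23.7 and 26.8 CPM in the untreated and 17.6 and 17.7 CPM in the BML-210 libraries, without overlap. It fell by 0.51 ± 0.10 on the log2 scale (SE; edgeR adjusted p = 2.21e-05). Tnfrsf22, 16.15 kb away on the same strand, was at 42.4 and 40.1 CPM against 40.2 and 44.2 CPM, groups that overlapped, and differed by 0.03 ± 0.07 on the log2 scale (SE; edgeR adjusted p = 0.735). The difference between these fold changes was not tested. Tnfrsf26, next in line, had 13 counts in BML-210 replicate 2 and 1 or 2 in each other library; only without BML-210 replicate 1 was it tested and called (edgeR adjusted p = 0.0131). Tnfrsf11b, the gene of the soluble decoy osteoprotegerin, had 5 counts against 1. Tnfrsf23 and Tnfrsf26 share some exon bases with the antisense gene E230032D23Rik, which had 2 counts in the untreated libraries and 0 in the others.

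TRAF-binding receptors other than Tnfrsf1b mostly stayed uncalled. Tnfrsf9, a costimulatory receptor best known on activated T cells, was at 142 and 131 CPM against 131 and 140 CPM (log2 fold change -0.01 ± 0.04, SE; edgeR adjusted p = 0.910). Ltbr, the lymphotoxin beta receptor gene, lies 35.48 kb from Tnfrsf1a on chromosome 6 and was at 71.3 and 76.5 CPM against 79.6 and 75.8 CPM (0.07 ± 0.05, SE; edgeR adjusted p = 0.273). Cd40 was at 41.1 and 38.7 CPM against 40.6 and 43.9 CPM (0.08 ± 0.07, SE; edgeR adjusted p = 0.378). In each of these 3 genes the libraries of the groups overlapped. Tnfrsf12a, the receptor gene for TWEAK, was lower in both BML-210 libraries (22.9 and 23.6 CPM against 25.3 and 26.9 CPM) but did not pass (-0.16 ± 0.09, SE; edgeR adjusted p = 0.142).

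Tnfrsf13c, the BAFF receptor gene of B cells, showed the largest receptor fold change at a low level. It was at 0.730 and 0.947 CPM in the untreated and 2.195 and 1.78 CPM in the BML-210 libraries, 12 and 13 counts against 29 and 25. On the log2 scale it rose by 1.25 ± 0.39 (SE; edgeR adjusted p = 0.0059), and the call was lost without untreated replicate 1 (0.0938), without BML-210 replicate 1 (0.0852) and in DESeq2 (0.0840), in a range of 0.00524 to 0.0938 over 13 alternatives. B-cell markers were near 0 in both groups: Ms4a1 had 1 count in each, and Cd79a had 10 in the untreated and 13 in the BML-210 libraries. Tnfrsf14 and Tnfrsf4 were at 1 to 2 CPM and not called, and 6 more TRAF-binding receptor genes had at most 11 counts in all.

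**Figure D3:**
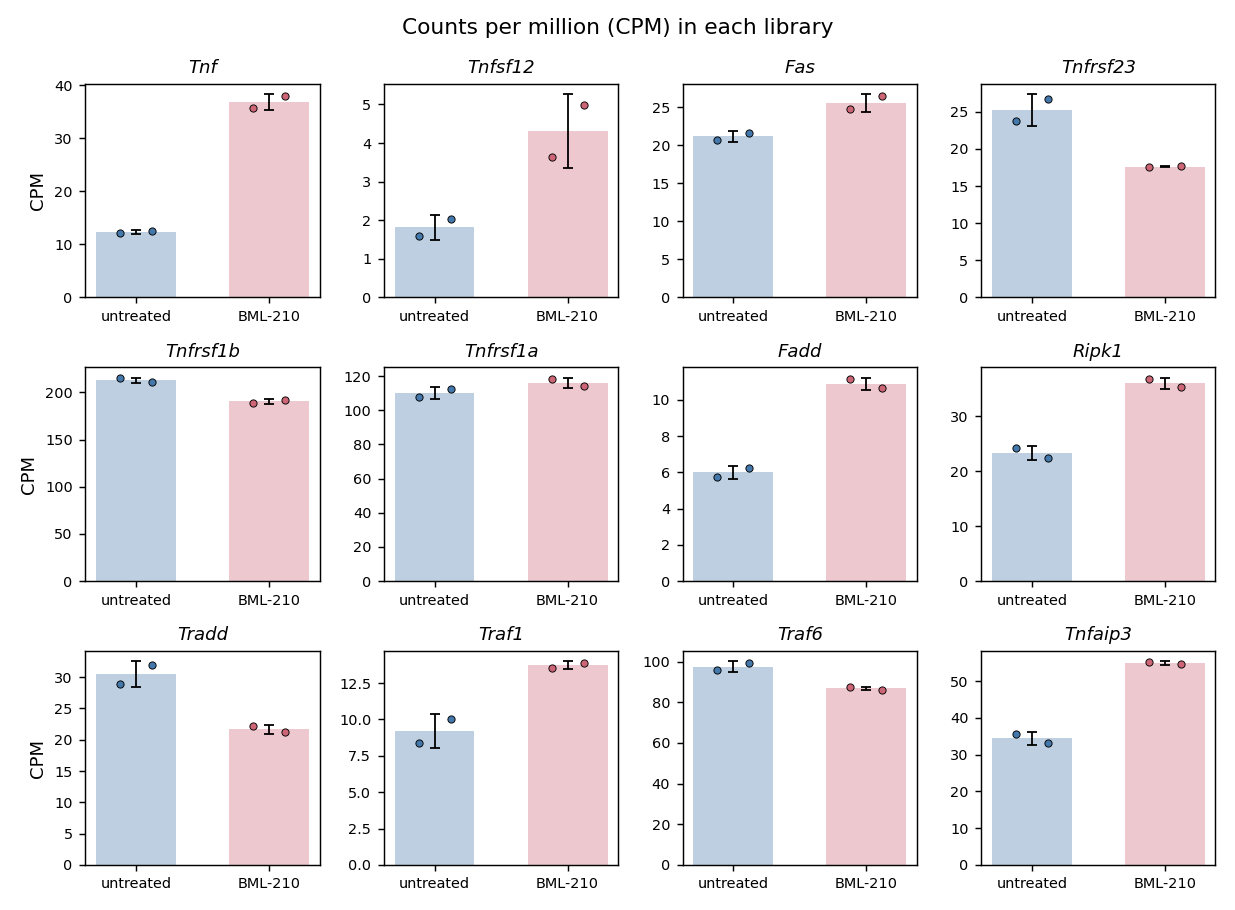
CPM in each library for 12 members, ligands first, then receptors, adaptors and Tnfaip3; points are libraries, bars are means and whiskers are the SD over 2 libraries, and every axis starts at 0. Tnf, Fadd, Ripk1, Traf1 and Tnfaip3 are higher in both BML-210 libraries, and Tradd and Tnfrsf23 lower in both.

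Of 9 tested adaptors 4 were called higher (44.4%) and 3 lower (33.3%), against 22.9% and 23.5% of all tested genes. All 3 death-domain adaptors were called, Fadd and Ripk1 higher and Tradd lower. Fadd (ENSMUSG00000031077.7, chromosome 7, 144577318 to 144582463), which links death receptors to caspase 8, was at 5.72 and 6.26 CPM in the untreated and 11.1 and 10.6 CPM in the BML-210 libraries. Its level rose by 0.86 ± 0.16 on the log2 scale (SE; edgeR adjusted p = 6.39e-06). Ripk1 (ENSMUSG00000021408.15, chromosome 13, 34002363 to 34037147), the kinase at the branch between survival and death, was at 24.2 and 22.4 CPM against 36.7 and 35.3 CPM, a rise of 0.62 ± 0.08 (SE; edgeR adjusted p = 8.8e-09). Tradd (ENSMUSG00000031887.13, chromosome 8, 105258286 to 105264609), the first adaptor at the type 1 TNF receptor, was at 29.0 and 31.9 CPM against 22.2 and 21.2 CPM. It fell by 0.49 ± 0.09 on the log2 scale (SE; edgeR adjusted p = 9.8e-06). In none of these 3 genes did the groups overlap, and each call held in all 13 alternatives.

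Per length, Tradd remained the most abundant of the 3, at 16.3 CPM per kb in the untreated and 11.6 in the BML-210 libraries. Ripk1 went from 2.79 to 4.31 and Fadd from 1.54 to 2.79 CPM per kb. Exons of Ripk1 overlap those of Serpinb6a on the other strand by 241 of 8344 bases. Serpinb6a had 2096 counts in the untreated and 1650 in the BML-210 libraries. These are raw counts, not scaled for library size, so part of their difference is depth. Fadd overlaps the antisense gene Faddos, which had 1 count in all.

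Of 6 tested TRAF genes 2 were called higher and 2 lower (33.3% each), against 22.9% and 23.5% of all tested genes. Traf1 (chromosome 2, 34941750 to 34961772), an NF-kappaB-induced TRAF without a RING domain, was at 8.40 and 10.1 CPM in the untreated and 13.5 and 13.9 CPM in the BML-210 libraries, a rise of 0.58 ± 0.14 on the log2 scale (SE; edgeR adjusted p = 3.16e-04). Traf2, its partner at the TNF receptors, was at 35.7 and 36.9 CPM against 41.2 and 42.2 CPM (0.20 ± 0.07, SE; edgeR adjusted p = 0.0182). The groups of both genes were apart. The Traf2 call was lost without untreated replicate 1 (0.126), without BML-210 replicate 2 (0.116) and in DESeq2 (0.136), in a range of 0.0105 to 0.136 over 13 alternatives.

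Traf6, the adaptor of the interleukin-1 and Toll-like receptors, was at 95.6 and 99.3 CPM in the untreated and 87.4 and 86.1 CPM in the BML-210 libraries. It fell by 0.17 ± 0.05 (SE; edgeR adjusted p = 0.00424), and DESeq2 did not call it (0.0605, in a range of 7.74e-04 to 0.0605 over 13 alternatives). Traf7, an atypical member with WD40 repeats in place of the usual TRAF domain, was at 114 and 116 CPM against 103 and 95.9 CPM and fell by 0.21 ± 0.05 (SE; edgeR adjusted p = 1.87e-04). Traf3, which restrains non-canonical NF-kappaB signalling, was at 57.1 and 61.8 CPM against 58.7 and 60.3 CPM, and Traf4 at 28.7 and 31.2 CPM against 31.3 and 31.4 CPM. Neither was called (edgeR adjusted p = 0.956 and 0.531). Both Traf5 entries were near the floor: the chromosome 1 copy had 1 count and the scaffold copy 19 over the 4 libraries. The copies have the same exonic length of 4566 bases, and the handling of reads that match both is unknown.

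Of 8 tested TNFAIP and TNIP genes 4 were called higher (50% against 22.9% of all tested genes) and 1 lower (12.5% against 23.5%). Tnfaip3 (ENSMUSG00000019850.11, chromosome 10, 19000910 to 19015657), the ubiquitin-editing brake whose promoter is shown above, was at 35.6 and 33.1 CPM in the untreated and 55.2 and 54.5 CPM in the BML-210 libraries. The groups lay far apart for their spread, and the rise was 0.67 ± 0.07 on the log2 scale (SE; edgeR adjusted p = 1.54e-12). Tnip1, which encodes a ubiquitin-binding partner of that enzyme, was at 164 and 168 CPM against 192 and 201 CPM (0.25 ± 0.04, SE; edgeR adjusted p = 3.09e-07). Tnip2, a second partner, went the other way, at 15.9 and 16.0 CPM against 11.9 and 14.1 CPM (-0.30 ± 0.12, SE; edgeR adjusted p = 0.039). That call was lost in 6 of 13 alternatives, among them without untreated replicate 1 (0.0913), untreated replicate 2 (0.0884) or BML-210 replicate 1 (0.333), in a range of 0.0181 to 0.333.

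Tnfaip2, a TNF-inducible gene of membrane protrusions, was at 235 and 237 CPM in the untreated and 312 and 316 CPM in the BML-210 libraries (0.41 ± 0.03, SE; edgeR adjusted p = 5.17e-16). Tnfaip8, named for its induction by TNF and known to oppose apoptosis, was at 37.2 and 38.2 CPM against 50.5 and 48.2 CPM (0.39 ± 0.07, SE; edgeR adjusted p = 3e-06). In both genes the groups were apart. Tnfaip1 (0.05) and Tnfaip6 (0.14), the latter the gene of a hyaluronan-binding protein, were not called (edgeR adjusted p = 0.271 and 0.472). Tnfaip8l1, at 3.04 and 3.13 CPM against 2.42 and 1.499 CPM, did not pass (-0.66 ± 0.29, SE; edgeR adjusted p = 0.0566), but it did without BML-210 replicate 1 (0.0199) and with upper-quartile scaling (0.0458), in a range of 0.0199 to 0.456 over 13 alternatives. Tnfaip8l2 and Tnfaip8l3 had at most 4 counts in all.

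The TRAF-interacting genes share a name more than a function. Traf3ip1, an intraflagellar transport gene, was at 8.03 and 7.94 CPM in the untreated and 6.51 and 5.42 CPM in the BML-210 libraries and fell by 0.42 ± 0.17 (SE; edgeR adjusted p = 0.0376). The call was lost in 5 of 13 alternatives, among them without untreated replicate 1 (0.1), untreated replicate 2 (0.0724) or BML-210 replicate 2 (0.287), in a range of 0.0257 to 0.287. Traf3ip2, the adaptor of the interleukin-17 receptor, was at 29.4 and 30.0 CPM against 29.3 and 28.5 CPM and was not called (edgeR adjusted p = 0.749). Traf3ip3 had 20 counts in all. Over all roles, 17 members share exon bases with another gene. Of these 10 were tested and 7 are among the 19 called. Of all tested members 52.8% were called, and of all tested genes 46.4%.

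Other genes of the pathway were taken from lists drawn up by function, with earlier results of these data known. Among 23 tested genes of the ubiquitin and kinase relay between receptor and NF-kappaB, 7 were called higher and 4 lower (median log2 fold change 0.09), close to the 46.4% of all tested genes called in either direction. The ubiquitin ligase gene Birc3, which sits on TRAF2 at the receptor, rose by 1.16 (7.23 to 16.1 CPM), the kinase-binding gene Tab2 by 0.38 and Xiap by 0.34. The IKK scaffold gene Ikbkg fell by 0.34 and the deubiquitinase gene Cyld by 0.24. Of 10 tested NF-kappaB subunit and inhibitor genes 8 were called higher and 0 lower (median 0.42), against 22.9% and 23.5% of all tested genes. The 4 with the smallest adjusted p were Nfkb1 (0.86), Nfkbiz (0.65), Nfkbia (0.58) and Nfkb2 (0.37). Relb, Rela, Nfkbie and Bcl3 made up the rest of the 8, and Rel and Nfkbib were not called.

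**Figure D4:**
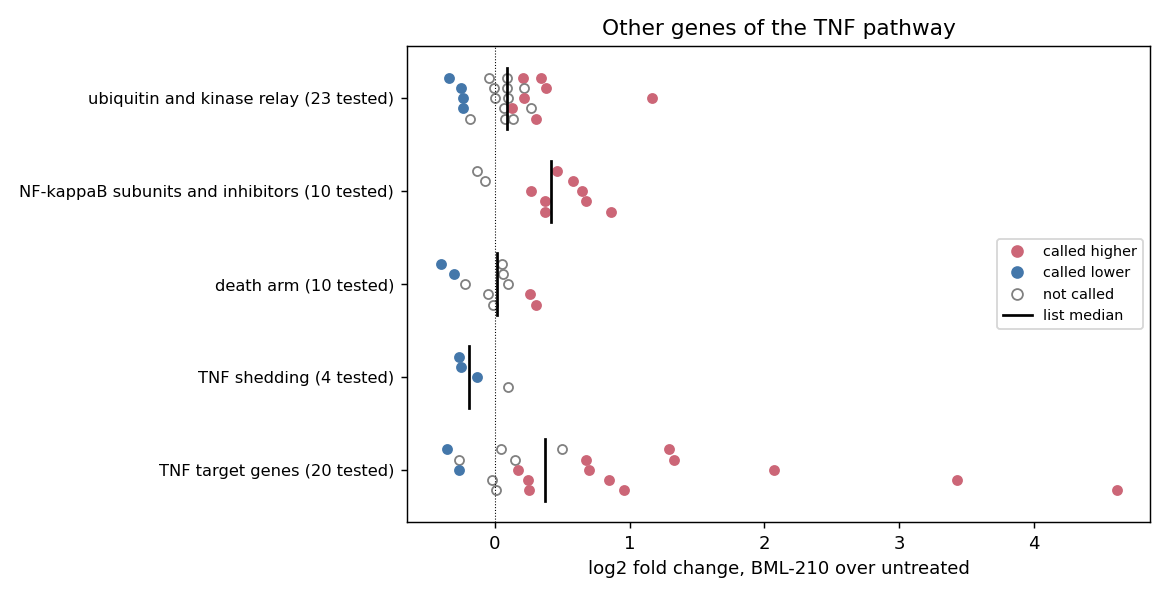
Log2 fold change of the tested genes in 5 further lists of the pathway, each point a gene and each black bar the list's median; points are spread vertically for legibility. The NF-kappaB and target lists have medians of 0.42 and 0.37, the relay and death lists stay near 0 and the shedding list lies at -0.19.

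In the death arm 2 of 10 tested genes were called higher and 2 lower (median 0.02), a share near the 46.4% of all tested genes. Casp8, the caspase that FADD recruits, rose by 0.31, and Bid, which carries its signal to mitochondria, by 0.26. The apoptosome genes Apaf1 and Cycs had log2 fold changes of -0.40 and -0.30 and were called lower. Of 4 tested genes for shedding of TNF and its receptors 3 were called lower, against 23.5% of all tested genes: the protease genes Adam10 (-0.25) and Adam17 (-0.13) and the Adam17 escort gene Rhbdf2 (-0.27). Levels of Adam17 went from 213 to 195 CPM while Tnf itself was higher. Among 20 tested target genes of TNF 12 were called higher and 2 lower (median 0.37), against 22.9% and 23.5% of all tested genes. The adhesion gene Icam1 (0.70) rose, as did Mmp9 (1.33), Ccl2 (0.85) and Ccl7 (0.96), while the survival gene Bcl2l1 (-0.35) and the kinase gene Nuak2 (-0.27) were lower.

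Relatives that the symbol rule does not catch were sparse: 6 of 13 were tested, with 2 called higher and 1 lower, near the 46.4% of all tested genes. Trafd1, which encodes a TRAF-type zinc finger protein that restrains Toll-like receptor signalling, fell by 1.19 (23.9 to 10.5 CPM). The ubiquitin ligase gene Traip (0.60) and the TRAF-binding scaffold gene Tank (0.15) were called higher. The ligand genes Cd40lg and Cd70 had 0 counts in all libraries, so Cd40 was expressed here without reads of its ligand. A count of 0 in a library allows up to 3 counts, or 0.183 to 0.227 CPM, as a limit that covers counting error only.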

How the data were processed

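Total RNA of EO771 cells was sequenced in 4 libraries, 2 per group. The authors deposited a single table of raw read counts per gene, with symbol, Ensembl identifier, exon positions, exonic length and strand, per the file headers. Per the submitters' processing notes, bcl2fastq, STAR 2.5, featureCounts of Subread 1.5.1 and edgeR 3.20.8 were used with build mm10. The handling of strand, multiply mapping reads and overlapping genes is not stated in the labels, so reads in shared exons cannot be assigned with certainty.

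The counts were fitted here in R 4.3.3 with edgeR 4.0.16: default filterByExpr, TMM scaling, a robust quasi-likelihood fit on group alone with 2 residual degrees of freedom, and Benjamini-Hochberg adjustment over all 14455 genes that passed the filter. A gene is called where its adjusted p is under 0.05. CPM are counts per 1000000 of the scaled library, and CPM per kb divides them by exonic length. Each SE is approximate: the absolute log2 fold change divided by the root of its F statistic. On simulated counts for this comparison, 14156 genes were tested. The fit recovered 67% of 100 genes changed by 0.5 and 87% of 100 genes changed by 1 on the log2 scale. These changed genes were drawn from those with a mean of at least 1 CPM, so the rates do not cover lower levels. There were 164 calls, and 10 of these were false. Few genes were changed in that simulation, whereas 46.4% of tested genes were called in the data. The adjusted p depends on this share, so the simulated rates do not give the power or error rate of the comparison itself.

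The replicate libraries differed by more than counting noise (chi-square per degree of freedom 2.7 and 1.76). The biological coefficient of variation, the relative spread beyond counting noise, was 2.49%. Each library was treated as 1 sample, but these checks do not show whether the libraries are biological replicates. The labels do not say that the libraries came from separate cultures, so p-values measure only the spread between these libraries, which may be technical. Members, roles, lists and motifs were chosen with earlier results of these data known. Values in each library are given for called members with a mean of at least 1 CPM and for the defining receptors and adaptors. Such values are also given for Tnfsf13, Tnfsf13b, Tnfrsf9, Tnfrsf12a, Tnfrsf22, Traf4, Tnfaip8l1 and Traf3ip2, which were not called and lie outside this rule. Counts in each library are given for the untested Lta, Ltb, Tnfsf10 and Tnfrsf26. From each further list come up to 4 genes with the smallest adjusted p, and up to 2 called against its main direction. Named outside this rule, after their values were seen, are low-count members and genes sharing exons with members. The same holds for the cell markers given (Krt8, Cdh1, Krt18, Cd68, Adgre1, Cd14, Lyz2, Csf1r, C1qc, Pdgfra, Lum, Cd79a, Ms4a1). It also holds for Relb, Rela, Nfkbie, Bcl3, Rel, Nfkbib, Cd40lg and Cd70. Alternatives were other scalings and filters, a replicate block, single libraries left out, genes above 1% of a library left out, DESeq2 1.42.0 and limma-voom (limma 3.58.1).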

Additional observations from a re-analysis of the deposited data

How the results depend on the processing

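Of the 19 members called, 13 kept their call and direction in all 13 alternatives, and of the 17 not called 16 stayed so. No direction of a called member turned. With the replicate number as a block, 6847 genes, 12 members higher and 7 lower were called, and the same 19 members; replicate differences of the groups correlated by 0.0109 across genes, so the numbers are not taken as pairs. DESeq2 called 4 members lower, 0 receptors higher and 0 TNFAIP or TNIP genes lower. Receptors called higher ran from 0 to 2 when single libraries were left out (0 without untreated replicate 1, 1 without BML-210 replicate 2). TNFAIP or TNIP genes called lower ran from 0 to 1 in the same way (0 without either untreated library), and were 2 with upper-quartile scaling and 0 with library size only or no filter. Without a filter 1 ligand, Tnfsf9, was called lower (edgeR adjusted p = 0.0427). The cause of these shifts was not tested. Depth is a limit: 27 members had too few reads to be tested, most ligands among them, and 2 libraries per group leave 2 residual degrees of freedom.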
